A study of Mus musculus with 4 samples.

Results

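The promoters of 49 cytosolic ribosomal protein genes, 27 of the large subunit and 22 of the small subunit, were examined in lists of accessible chromatin from mouse embryonic stem cells. The genes were taken from a fixed list of names, without a filter on their peaks. The list was chosen with earlier results of these data known. They are 49 of 21887 mouse protein-coding genes placed on assembled chromosomes. A promoter peak was a peak within 1 kb of the gene's transcript start, and the surrounding locus was the gene body with 50 kb on each side.

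Cytosolic ribosomes translate nearly all cellular mRNA. Each ribosome is built from ribosomal RNA and ribosomal proteins, most of which are needed in equal amounts. The genes that encode these proteins are scattered over the genome, are transcribed in every growing cell, and have compact CG-rich promoters that are usually free of nucleosomes. Many of their mRNAs start with a C followed by a run of pyrimidines, the 5′ terminal oligopyrimidine tract through which mTORC1 signalling controls their translation.

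Open chromatin was profiled by ATAC-seq of single nuclei, where a transposase inserts adapters into accessible DNA, on the 10x Multiome platform, which also reads RNA from the same nuclei. There were 4 libraries with 1 library per group. The groups were Cdc14ab knockout (KO) cells after 5 days in neural differentiation medium, wild-type (WT) cells after 5 days in that medium, KO cells at day 0 in LIF medium, and WT cells at day 0 in LIF medium. Cdc14a and Cdc14b encode phosphatases that act on proline-directed phosphorylation sites.
All cells were embryonic stem cells derived from blastocysts and grown on feeder cells, which were removed by passage on gelatin. The neural medium was N2B27 with EGF and FGF2. Every library carries the same clone label, so genotype and the particular line cannot be told apart. With 1 library per group the differences carry no replicate error, and none was tested.

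The lists held 227878 peaks in the KO day 5 library, 189571 in the WT day 5 library, 222257 in the KO day 0 library and 198860 in the WT day 0 library, and read depth was unknown. They covered 197 Mb, 162 Mb, 190 Mb and 169 Mb in that order of libraries. Promoter peaks were listed at 5 of 5 neural progenitor markers in every library and at 5 or 6 of 6 stem cell markers, where Pou5f1 had none in the WT day 5 library. Feeder fibroblast markers had promoter peaks for 6 of 6 genes in 3 libraries and for 5 of 6 in the WT day 0 library, so peak presence at promoters does not separate these cell types here. Peaks were listed at 3 Y-linked gene ends in the WT day 5 library and at 0 in the other 3 libraries, and its part in the results was not tested. A peak list pools all nuclei of a library, so a change in the share of nuclei with an open region and a change within nuclei cannot be told apart.

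The promoters of 8 genes are shown, 5′ to 3′ on the gene's strand, from RefSeq on GRCm38.p6. Each is given as the 80 bases before and 20 bases from the transcript start. Capitals mark the ETS-factor core CTTCCG or its reverse complement CGGAAG, the GC box GGGCGG or CCGCCC, the YY1 word AAGATGGC, and any pyrimidine run that passes through the start base. Rps18, Rps6 and Rpl35 are shown as examples of the motifs and of a pyrimidine run at the start, which most of the genes lack at the listed start. Rpl4, Rpl38 and Rpl5 have the 3 narrowest peaks by mean width, Rps27 has one of the 3 widest, and Rps25 is next to Rpl4 at the upstream end of the peak positions.
Rps18 (chr17:33955646-33955745, minus strand): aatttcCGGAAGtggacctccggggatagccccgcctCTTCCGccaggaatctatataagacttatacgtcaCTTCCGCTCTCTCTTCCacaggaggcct
Rps6 (chr4:86857348-86857447, minus strand): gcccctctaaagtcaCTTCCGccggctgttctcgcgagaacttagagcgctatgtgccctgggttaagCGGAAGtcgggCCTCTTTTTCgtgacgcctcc
Rpl35 (chr2:39005112-39005211, minus strand): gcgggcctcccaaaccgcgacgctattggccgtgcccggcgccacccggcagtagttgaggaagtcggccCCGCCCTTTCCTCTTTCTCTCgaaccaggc
Rps27 (chr3:90213629-90213728, minus strand): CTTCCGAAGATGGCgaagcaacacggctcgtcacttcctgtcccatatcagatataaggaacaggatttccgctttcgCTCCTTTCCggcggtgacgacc
Rpl38 (chr11:114668500-114668599, plus strand): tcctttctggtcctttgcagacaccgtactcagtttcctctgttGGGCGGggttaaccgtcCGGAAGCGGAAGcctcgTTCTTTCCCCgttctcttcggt
Rpl4 (chr9:64173307-64173406, plus strand): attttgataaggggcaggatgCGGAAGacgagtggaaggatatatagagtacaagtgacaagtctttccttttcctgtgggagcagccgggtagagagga
Rpl5 (chr5:107900448-107900547, plus strand): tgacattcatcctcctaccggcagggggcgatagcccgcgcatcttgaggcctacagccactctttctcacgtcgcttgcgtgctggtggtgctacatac
Rps25 (chr9:44407634-44407733, plus strand): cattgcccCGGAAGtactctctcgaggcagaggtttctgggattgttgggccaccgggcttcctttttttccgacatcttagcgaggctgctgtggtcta

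Of the 49 genes, 40 had a RefSeq promoter entry and therefore a stranded transcript start. In the 300 bases around these starts, from 250 before to 50 after, the letters CTTCCG on either strand occurred in 28 of 40 promoters (70%), against 21.5% of all 17492 promoters in the table. The first base of a match lay at a median of −59 bases, with every match in a promoter counted. GGGCGG on either strand occurred in 21 of 40 (52.5%), against 46.3% of all promoters. AAGATGGC on either strand was found in Rps27 alone (2.5%), against 3.22% of all promoters, where it directly follows an ETS core. TATAAA on the gene's strand was found in Rplp0, Rps2 and Rps28 (7.5%), against 9.0% of all. The GC box and the ETS core can overlap by their shared letters.
Pyrimidines filled every base from −2 to +5 in 11 of 40 promoters (27.5%), against 1.93% of all. A C stood at the start base in 15 of 40 (37.5%), against 13.7% of all. The longest pyrimidine run through a listed start was the 18 bases of Rpl35, which encodes a protein near the exit of the nascent-chain tunnel, and 21 of 40 genes had none at the listed start. The G and C content was near that of other promoters, with a median of 56.8% against 56.3%, while the median number of CG dinucleotides was 21 against 13. These matches describe letters in a fixed window and say nothing of which factor binds.

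Every ribosomal protein gene had a promoter peak in every library. The count was 49 of 49 in each of the 4 libraries, with an exact 95% binomial interval of 92.7 to 100% that covers counting error only. Among all protein-coding genes 74.5% had a promoter peak in the KO day 5 library, 72.5% in the WT day 5 library, 73.9% in the KO day 0 library and 72.9% in the WT day 0 library. A promoter peak in all 4 libraries was found for 49 of 49 ribosomal protein genes and for 68.9% of all genes.
For the 9 genes without a stranded start (Rplp1, Rpl3, Rpl7, Rpl8, Rpl30, Rpl32, Rps14, Rps20 and Rps29) the end of the gene with more covered bases was used, which can only favour presence. The 40 genes with a stranded start all had a promoter peak in all 4 libraries, against 68.3% of all genes with one.

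The peak usually lay over the start itself. A peak covered the start base of 48 of 49 genes in the KO day 5 library, 46 in the WT day 5 library, 46 in the KO day 0 library and 47 in the WT day 0 library. It did so in all 4 libraries for 46 of 49 genes, against 59.2% of all genes. The exceptions were Rpl4, Rpl7 and Rpl3. Rpl4 encodes a large-subunit protein that lines the nascent-chain tunnel, and its peak ended upstream of the listed start in 3 libraries, with its downstream edge at 72 bp in the KO day 5 library, −81 bp in the WT day 5 library, −105 bp in the KO day 0 library and −22 bp in the WT day 0 library.
The Rpl7 peak covered the gene end in the KO day 5 and WT day 0 libraries and began beside it in the WT day 5 and KO day 0 libraries.
Rpl3 encodes a protein that reaches into the peptidyl transferase centre, and its result depends on which gene end is read. At the lower-coordinate end, which held more covered bases, a peak lay beside the end but not over it. At the other end a peak lay over the gene end in every library, with widths of 894 bp in the KO day 5 library, 889 bp in the WT day 5 library, 863 bp in the KO day 0 library and 830 bp in the WT day 0 library.

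**Figure D1:**
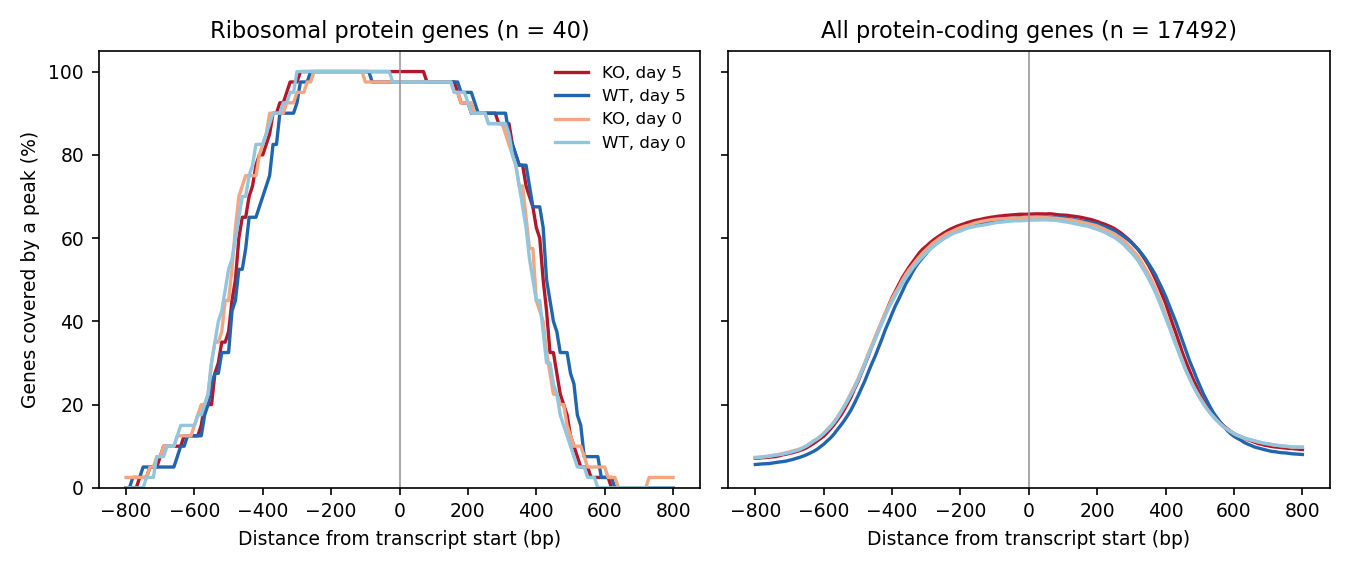
Share of genes covered by a peak (percent) against distance from the transcript start in bp, in each of the 4 libraries, for the 40 ribosomal protein genes with a stranded start (left) and all 17492 such genes (right). The ribosomal protein curves reach 97.5 to 100% at the start and fall to 5% or less from 600 bp downstream onward.

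Extra peaks near the start were uncommon. A second peak within 1 kb was listed in at least 1 library for 3 of 49 genes (Rpl3, Rpl22 and Rps26), against 20.2% of all genes. For Rpl3 this rests on the lower-coordinate gene end, which no peak covered. Rpl22 encodes a large-subunit protein needed for mouse T-cell development. Its second peak was 593 bp wide in the KO day 0 library and 639 bp wide in the WT day 0 library and was not listed in either day 5 library. It covered another listed Rpl22 start, at −1290 bp relative to the one used. Rps26, a small-subunit gene mutated in human Diamond-Blackfan anaemia, had a second peak of 789 bp in the KO day 0 library alone, from 729 to 1517 bp downstream of the start.

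Promoter peaks of ribosomal protein genes were close to 900 bp wide in every library. The median width was 904 bp in the KO day 5 library, 900 bp in the WT day 5 library, 897 bp in the KO day 0 library and 894 bp in the WT day 0 library. All promoter peaks had medians of 888, 889, 883 and 882 bp in the same order of libraries. Peaks of every kind in these lists had median widths of 873 to 882 bp. The middle 50% of ribosomal protein promoter peaks spanned 891 to 913 bp in the KO day 5 library, while that of all promoter peaks spanned 853 to 911 bp.

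**Figure D2:**
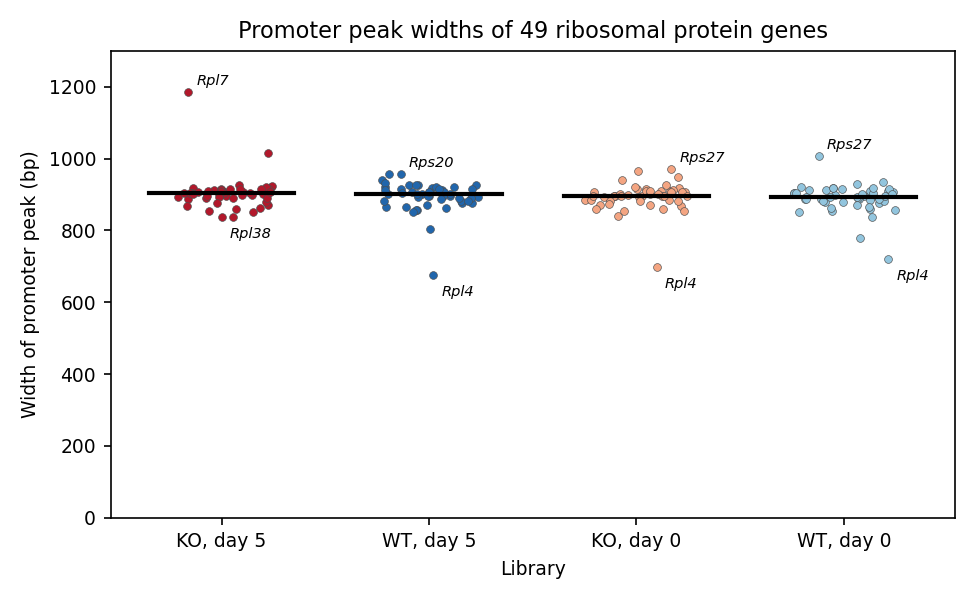
Width in bp of the promoter peak of each of the 49 ribosomal protein genes (points) with the median (bar) in each library. Most points lie near 900 bp, and the widest and narrowest gene of each library are named.

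A few genes stood apart in width. Rpl7, a large-subunit protein gene, had the widest peak by mean width, with 1186 bp in the KO day 5 library, 856 bp in the WT day 5 library, 966 bp in the KO day 0 library and 897 bp in the WT day 0 library. Its ratio was the highest of the 49 for KO against WT at day 5 (1.39) and for day 5 against day 0 in KO cells (1.23).
Rps27, which encodes a zinc-finger protein of the small subunit, had 901 bp in the KO day 5 library, 897 bp in the WT day 5 library, 972 bp in the KO day 0 library and 1008 bp in the WT day 0 library. It was narrower at day 5 in both genotypes, with day 5 against day 0 ratios of 0.927 in KO cells and 0.890 in WT cells, the lowest of the 49 in each. The difference was at the upstream edge, which lay at −490 bp in the KO day 5 library, −472 bp in the WT day 5 library, −600 bp in the KO day 0 library and −640 bp in the WT day 0 library. A start of Rab13 on the opposite strand lies 67 bp upstream of the Rps27 start.
Rpl4 was the narrowest by mean width, with 837 bp in the KO day 5 library, 675 bp in the WT day 5 library, 699 bp in the KO day 0 library and 721 bp in the WT day 0 library. Rpl38, which in mouse is required for normal patterning of the axial skeleton, had 836 bp in the KO day 5 library, 803 bp in the WT day 5 library, 896 bp in the KO day 0 library and 780 bp in the WT day 0 library. Its KO against WT ratio at day 0, 1.15, was the highest of the 49.

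The stalk, 5S and signalling-linked members are described next. Rplp0, the base of the stalk that recruits translation GTPases, had 870 bp in the KO day 5 library, 857 bp in the WT day 5 library, 867 bp in the KO day 0 library and 875 bp in the WT day 0 library. Its stalk partner Rplp1 had 911, 922, 915 and 919 bp in the same order. The other partner, Rplp2, had 922, 940, 907 and 910 bp. Rplp2 was widest in the WT day 5 library and Rplp0 narrowest there.
Rpl5, which binds 5S ribosomal RNA and can inhibit Mdm2, had 854 bp in the KO day 5 library, 875 bp in the WT day 5 library, 841 bp in the KO day 0 library and 837 bp in the WT day 0 library, which made it one of the 3 narrowest by mean width. Rpl11, its partner in that complex, had 895, 894, 911 and 910 bp in the same order. Rps6, the small-subunit protein phosphorylated by S6 kinases, had 918, 917, 901 and 903 bp.

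The peak centre differed more between genes than between days. It ranged from −454 to 189 bp over the 40 genes in the KO day 0 library, with the middle 50% from −108 to 0 bp. A gene's change between days ranged from −131 to 108 bp in KO cells and from −59 to 112 bp in WT cells. The median size of that change was 17.5 bp in KO cells and 38 bp in WT cells. The peak centre of Rpl19 lay downstream of the start in every library, at 156 bp in the KO day 5 library, 164 bp in the WT day 5 library, 166 bp in the KO day 0 library and 136 bp in the WT day 0 library. The centre of Rpl4 lay farthest upstream, at −346 bp in the KO day 5 library, −418 bp in the WT day 5 library, −454 bp in the KO day 0 library and −382 bp in the WT day 0 library. Rps25, Rps26 and Rps19 followed it at the upstream end of the order.
Over the 40 genes the median centre was −28.5 bp in the KO day 5 library, −20 bp in the WT day 5 library, −50.5 bp in the KO day 0 library and −60 bp in the WT day 0 library. Over all genes with a stranded start it was −7, 9, −12 and −13 bp in the same order. Peaks of all 49 genes overlapped between the libraries of each comparison, as did those of most genes. Among all genes with a promoter peak in both libraries, 15378 of 15658 overlapped for KO against WT at day 0. At day 5 this was 15224 of 15522. Between the days it was 14933 of 15309 in WT cells and 15363 of 15730 in KO cells. Both peaks shared at least 80% of their length in 49 ribosomal protein genes for KO against WT at day 0 and in 48 at day 5. For day 5 against day 0 the counts were 49 in WT cells and 48 in KO cells. Over all genes with a promoter peak in both libraries the shares were 95.7%, 94.3%, 90.4% and 92.7% in that order.

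**Figure D3:**
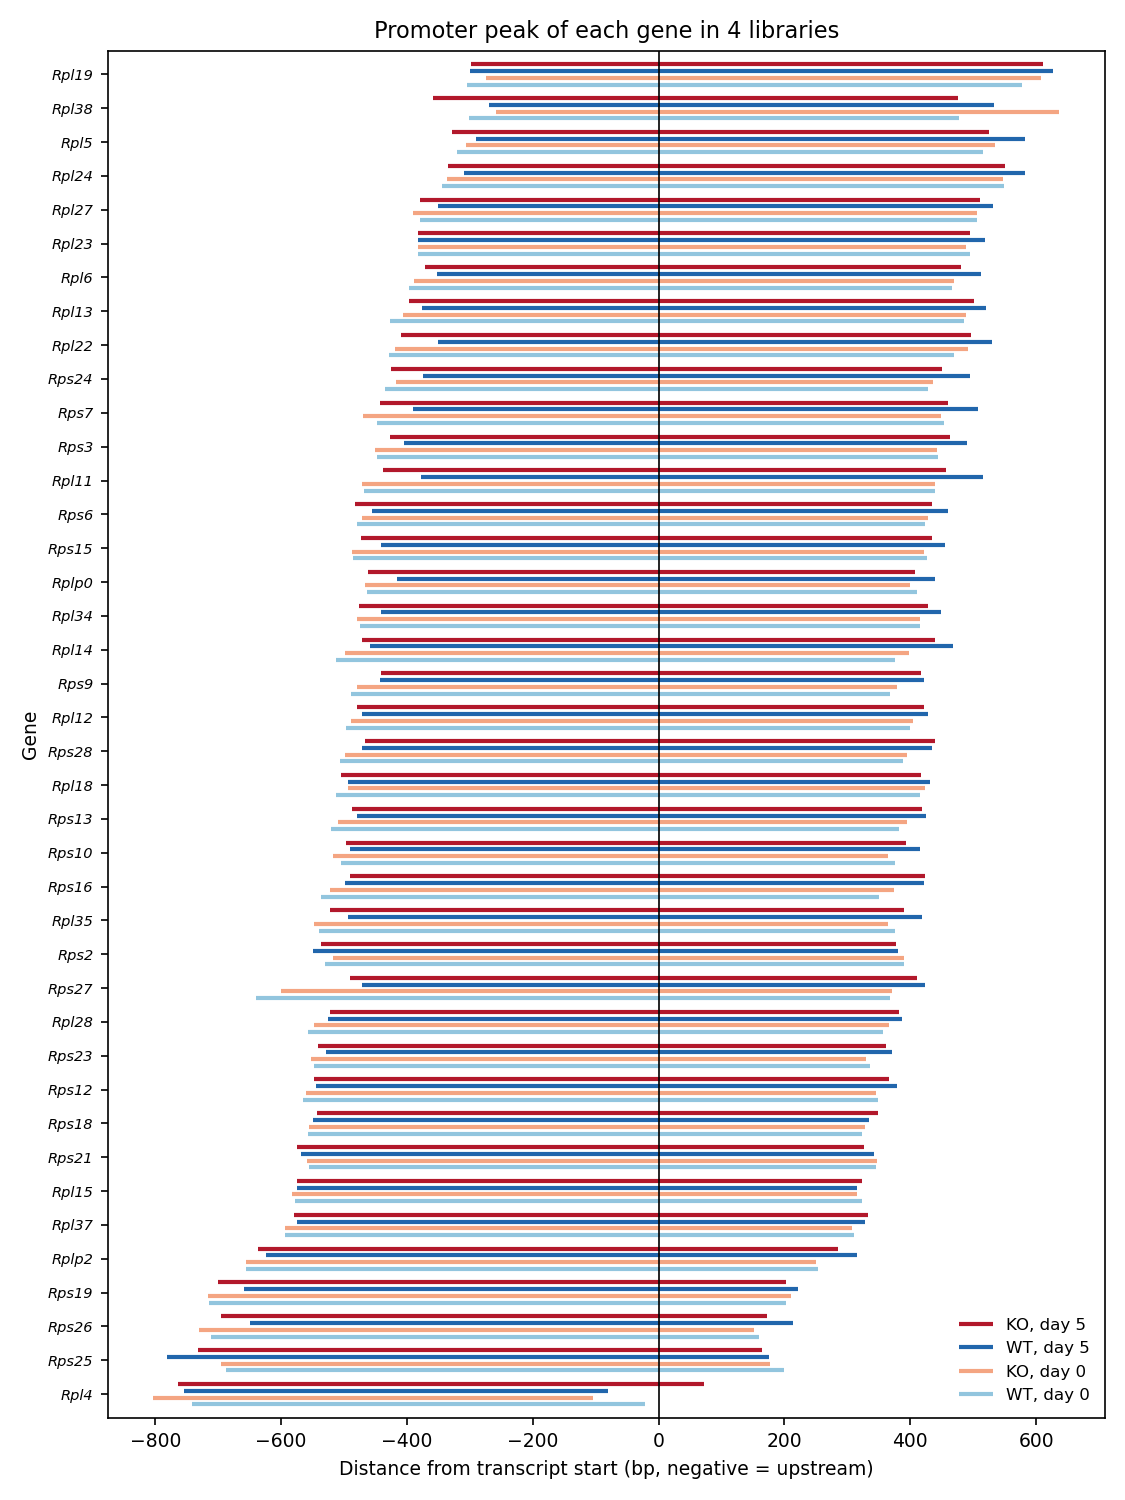
Extent of the promoter peak of each of 40 ribosomal protein genes in bp from the transcript start, with a line for each of the 4 libraries, genes ordered by mean centre. The lines of most genes nearly coincide, Rpl38, Rps27 and Rpl4 being the exceptions named in the text, and the order runs from Rpl19 downstream to Rpl4 upstream.

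Promoter peaks lay slightly farther downstream at day 5 than at day 0, and by more in WT cells than in KO cells. The WT move rests on the WT day 5 library, the only one with peaks at Y-linked gene ends. Whether the WT libraries came from the same line could not be checked, so day and line cannot be told apart there. For moves of the peak centre, here and below, all genes means those with a stranded start and overlapping promoter peaks in the libraries compared. In KO cells the peak centre lay downstream of its day 0 place in 32 of 40 genes, against 54.8% of all genes, and upstream in 8, against 43.8%. It moved by a median of 14 bp over the ribosomal protein genes and 3 bp over all genes. In WT cells it lay downstream in 35 of 40 genes, against 66% of all genes, and upstream in 5, against 33.2%. It moved by a median of 37 bp and 17 bp. The middle 50% of ribosomal protein genes spanned 2.75 to 24.25 bp in KO cells and 26.5 to 46.5 bp in WT cells. The median of all genes moved the same way, by less.
The centre lay downstream at day 5 in both genotypes in 30 of 40 genes, against 44.8% of all genes. The move was farther downstream in WT cells than in KO cells in 35 of 40 genes, against 65.7% of all. The edges gave like values, with median downstream moves of 32.5 bp at the upstream edge and 36 bp at the downstream edge in WT cells, and of 12.5 bp and 13.5 bp in KO cells.

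Rpl11 is an example of the common pattern. Its centre lay at 9 bp in the KO day 5 library, 70 bp in the WT day 5 library, −16 bp in the KO day 0 library and −14 bp in the WT day 0 library. Rplp0 lay at −28 bp, 12 bp, −34 bp and −27 bp in the same order. Rplp2 lay at −176, −155, −203 and −201 bp. In all 3 the WT day 5 library was the farthest downstream and the 2 day 0 libraries were close to each other.
Rps6 and Rpl5 also had their WT day 5 centre farthest downstream, but they did not move downstream in KO cells. Rps6 moved by 30 bp in WT cells and was nearly unmoved in KO cells, at −2 bp. Rpl5 moved by 48 bp in WT cells and by −16 bp in KO cells. Rps6 lay at −24 bp in the KO day 5 library, 2 bp in the WT day 5 library, −22 bp in the KO day 0 library and −28 bp in the WT day 0 library. Rpl5 lay at 98 bp in the KO day 5 library, 146 bp in the WT day 5 library, 114 bp in the KO day 0 library and 98 bp in the WT day 0 library.
The largest downstream move in WT cells was that of Rps27, 112 bp, whose centre lay at −40 bp in the KO day 5 library, −24 bp in the WT day 5 library, −114 bp in the KO day 0 library and −136 bp in the WT day 0 library. Rps25, which is needed for some internal-ribosome-entry initiation, went the other way, with centres of −284, −303, −259 and −244 bp in the same order. Rps2, Rps21 and Rps25 were the 3 of 40 genes farther upstream at day 5 in both genotypes, against 22.8% of all genes.
Rpl38 had the largest upstream move in KO cells, −131 bp, with centres of 58 bp in the KO day 5 library, 132 bp in the WT day 5 library, 189 bp in the KO day 0 library and 87 bp in the WT day 0 library. The KO day 0 centre lay farthest downstream and the KO day 5 centre closest to the start.

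**Figure D4:**
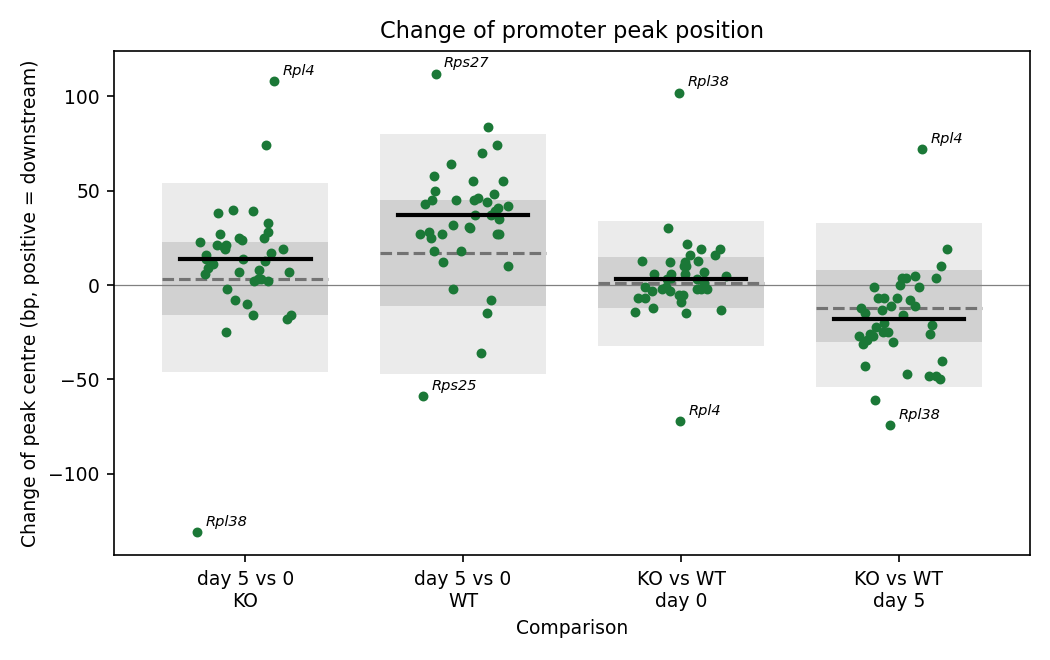
Change of promoter peak centre in bp, positive downstream, for 40 ribosomal protein genes (points, bar at their median) in the 4 comparisons. Boxes span the middle 50% and 80% of all genes and the dashed line is their median, which the ribosomal protein median exceeds for day 5 against day 0 in KO cells (14 against 3 bp) and WT cells (37 against 17 bp).

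Between genotypes the peak centres differed by more at day 5 than at day 0. At day 0 the KO centre lay downstream of the WT centre in 22 of 40 genes, against 51.9% of all genes, and upstream in 18, against 46.1%, with a median difference of 3 bp, or −1 bp over the 32 genes without an opposite-strand start within 1 kb upstream. At day 5 the KO centre lay downstream in 7 of 40 genes, against 32.5%. Also at day 5 the KO centre lay upstream of the WT centre in 32 of 40 genes, against 66.2% of all genes, with a median of −18 bp over the ribosomal protein genes and −12 bp over all genes. The day 5 comparison of genotypes and the WT comparison of days share the WT day 5 library, the one with the fewest peaks and with the Y-linked peaks, so they are not independent.
The genes of each ribosomal subunit were counted apart. In WT cells 19 of 21 large-subunit genes and 16 of 19 small-subunit genes lay farther downstream at day 5, against 66% of all genes, by medians of 35 and 37 bp. In KO cells the counts were 17 of 21 and 15 of 19, against 54.8% of all genes, by medians of 9 and 19 bp. An opposite-strand start lay within 1 kb upstream in 8 genes (20%, against 12.3% of all genes with a stranded start). These moved by medians of 15 bp in KO cells and 27 bp in WT cells, and the 32 without one by 13.5 and 38 bp.

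Related gene lists were set beside these values. Among 30 other cytosolic ribosomal protein genes, 29 had a promoter peak in all 4 libraries, and of the 18 with a stranded start 16 lay farther downstream at day 5 in KO cells (median 29 bp) and 17 in WT cells (41 bp). All 15 translation factor genes of the oligopyrimidine class had a peak in all 4 libraries, and of 9 with a start 5 moved downstream in KO cells (8 bp) and 9 in WT cells (40 bp). All 78 mitochondrial ribosomal protein genes had a peak in all 4 libraries, with 36 of 69 downstream in KO cells (2 bp) and 41 of 68 in WT cells (9.5 bp). All 17 ribosome biogenesis genes had one, with 8 of 14 downstream in KO cells (8.5 bp) and 9 of 14 in WT cells (23 bp). Of 6 paralogs of ribosomal protein genes with restricted expression, all had a peak in all 4 libraries, with 5 of 6 downstream in KO cells (17 bp) and 5 of 6 in WT cells (18.5 bp). The differences between lists were not tested.

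The wider loci held fewer peaks at day 5, as did the loci of all protein-coding genes. Within 50 kb of the 49 gene bodies there were 1057 peaks in the KO day 5 library, 863 in the WT day 5 library, 1163 in the KO day 0 library and 1099 in the WT day 0 library. These were 0.464%, 0.455%, 0.523% and 0.553% of each list in that order. Summed over the loci of all protein-coding genes, where a peak can count for several genes, the numbers were 423181, 345288, 436425 and 402355. The median locus had 18475 bp under peaks in the KO day 5 library, 14428 bp in the WT day 5 library, 20737 bp in the KO day 0 library and 18485 bp in the WT day 0 library.
Because the lists differ in length, each locus was compared as a log2 ratio of covered bases (with 500 bp added) minus the median of all genes. The all-gene medians subtracted were −0.03 for day 5 against day 0 in KO cells, −0.23 in WT cells, 0.11 for KO against WT at day 0 and 0.31 at day 5. The median over the 49 loci was then −0.08 for day 5 against day 0 in KO cells, −0.10 in WT cells, −0.04 for KO against WT at day 0 and −0.01 at day 5. The WT value for day 5 against day 0 was 0.067 with 10 kb flanks, so its sign depends on the flank.

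Few loci passed a 1.5-fold difference. Shares of all genes are here over those with any covered bases in either library. For KO against WT at day 0 none of 49 did, against 4.61% of all genes upward and 3.11% downward. At day 5, 1 locus was above (7.91% of all) and 1 below (4.28%). For day 5 against day 0 in KO cells, 1 locus was above (7.71%) and 2 below (2.45%), and in WT cells 0 were above (10.2%) and 2 below (6.22%).
Rpl30, a large-subunit gene, had the largest difference. Its locus held 7851 bp under peaks in the KO day 5 library, 5328 bp in the WT day 5 library, 13865 bp in the KO day 0 library and 15689 bp in the WT day 0 library, a centred log2 ratio for day 5 against day 0 of −0.75 in KO cells and −1.25 in WT cells. Its promoter peak stayed, with 1016, 914, 949 and 859 bp in the same order of libraries.
The Rpl37 locus held 18362 bp in the KO day 5 library, 9392 bp in the WT day 5 library, 18093 bp in the KO day 0 library and 17872 bp in the WT day 0 library. The WT day 5 library alone was low, which gave 0.62 for KO against WT at day 5 and −0.67 for day 5 against day 0 in WT cells.
The Rpl15 locus held 6492 bp in the KO day 5 library, 8041 bp in the WT day 5 library, 11674 bp in the KO day 0 library and 7462 bp in the WT day 0 library. Here the KO day 0 library was the highest and the KO day 5 library the lowest. The log2 ratio was 0.50 for KO against WT at day 0, −0.60 for KO against WT at day 5 and −0.77 for day 5 against day 0 in KO cells. The Rpl7 locus held 13441, 10161, 8846 and 10933 bp in the same order of libraries, with 0.61 for day 5 against day 0 in KO cells.

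**Figure D5:**
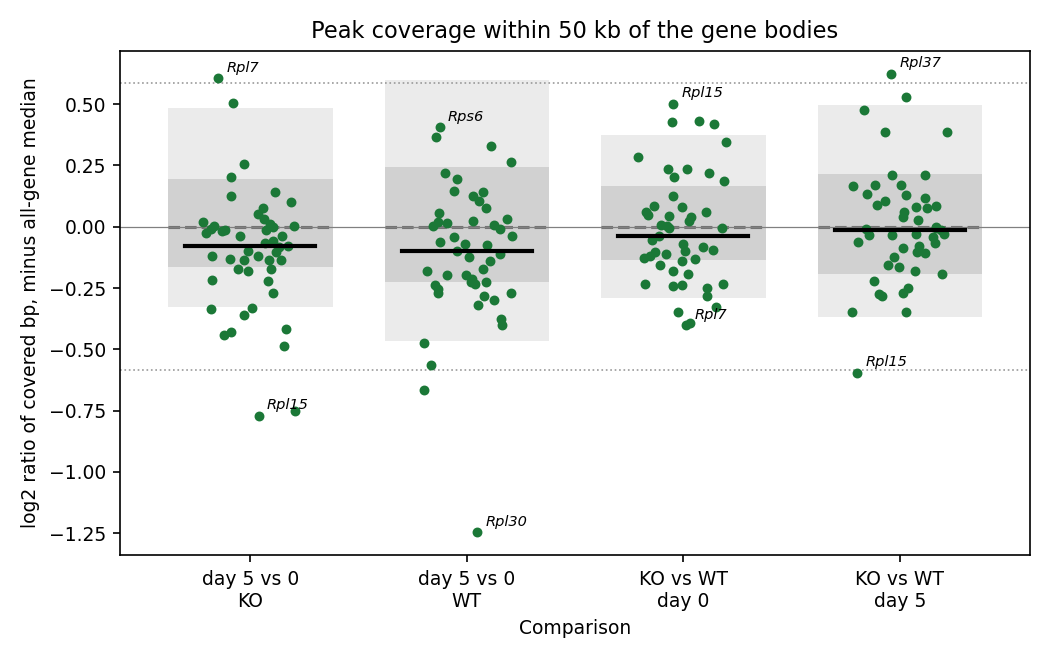
Log2 ratio of bases covered by peaks within 50 kb of each of the 49 gene bodies, minus the median of all genes, in the 4 comparisons (points, bar at their median). Boxes span the middle 50% and 80% of all genes and dotted lines mark 1.5-fold, which Rpl30 passes at −1.25 in WT cells.

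Peaks were also joined across libraries into regions. Of 52 regions at the genes' own promoters, 50 were listed in all 4 libraries (96.2%), against 77.4% of regions within 1 kb of a start over the genome. Of 181 regions at starts of other protein-coding genes within the loci, 154 were (85.1%). Of 1205 regions away from starts, 467 were (38.8%), and 299 were in 1 library alone (24.8%). Over the genome, 32.6% of the 246356 regions away from starts and within 50 kb of a protein-coding gene were in all 4 libraries and 31.8% in 1.
Regions listed in both day 0 libraries and neither day 5 library numbered 112 of the 1205 (9.29%), against 6.25% over the genome. Those in both day 5 libraries and neither day 0 library numbered 38 (3.15%), against 4.72%. Those in both KO libraries and neither WT library numbered 41 (3.40%), against 3.87%, and those in both WT libraries and neither KO library 11 (0.913%), against 0.899%.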

How the data were processed

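Each library's peak list, as the authors deposited it, holds 3 columns of coordinates (chromosome, start, end) with no score or depth. Per the file headers, cellranger-arc 2.0.0 made the lists on mm10; Scanpy 1.7.2 is also given in the submitters' processing notes. Per the labels' protocols, cells were treated with DNase I before lysis. RefSeq promoters on GRCm38.p6 gave the first-listed transcript start of 40 of 49 genes (17492 of 21887 overall); elsewhere the gene end with more covered bases within 1 kb was used, without strand. Python 3.11.15 with pandas 2.3.3, numpy 2.4.6 and scipy 1.17.1 was used. The steps for covered bases, peak counts and shifts of the peak centre were tested on simulated data, and the other steps were not. Peaks were matched between libraries by an overlap of at least 1 bp. Named genes were the 3 widest, 3 narrowest and 3 farthest promoter peaks, the 2 extremes of width and locus ratio at each end of each comparison, genes with a missing or second peak, and 6 listed genes; others were named after their values were seen. The genes and lists were chosen with earlier results of these data known, and peak shift was added after peak positions were seen. Alternatives covered windows, flanks, pseudocounts, listed starts, numbers of peaks and peak edges.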

Additional observations from a re-analysis of the deposited data

Results flagged for a closer look

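The median difference of promoter peak centre between KO and WT cells was −18 bp at day 5 and 3 bp at day 0 over the 40 ribosomal protein genes with a stranded start, so these medians lie on opposite sides of 0 at the 2 times. Over the 32 genes without an opposite-strand start within 1 kb upstream the medians were −23.5 bp at day 5 and −1 bp at day 0, on the same side of 0, so the day 0 sign is not fixed. The difference between the times was not tested, as each group has 1 library. At day 5, 32 of 40 genes lay upstream in KO cells, against 66.2% of all genes, and at day 0 18 of 40 did, against 46.1%.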

How the results depend on the processing

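Of 120 alternative values, 112 stayed within the 95% interval of the median over genes (for counts, within 1.5 times), and 8 did not. Some of these could not differ from the main setting. Equal numbers of the widest peaks keep the whole WT day 5 list, and the restriction to genes with a promoter peak in all 4 libraries keeps all 49. With 10 kb flanks in place of 50 kb the locus coverage medians were −0.19 for KO against WT at day 5, −0.14 for day 5 against day 0 in KO cells and 0.067 in WT cells, where the sign turned. The loci then held 253 peaks in the KO day 5 library, 241 in the WT day 5 library, 293 in the KO day 0 library and 285 in the WT day 0 library, as fewer bases were counted. The KO against WT median at day 5, −0.01, was 0.010 by number of peaks and 0.012 with equal numbers of the widest peaks, so its sign is not fixed. Without peaks at starts the WT median for day 5 against day 0 was −0.21, and the cause was not tested. The number of genes moved downstream between the days ranged from 30 to 33 in KO cells and from 34 to 36 in WT cells over the alternatives chosen after seeing the data (equal numbers of the widest peaks, any listed start, each edge). No paired analysis was possible because each group has 1 library. Read depth was unknown, so a peak that is not listed may be one that was not detectable.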
